A study of Rattus norvegicus with 8 samples.

Results

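Insulin-like growth factors (IGFs) are small secreted proteins related to insulin. Igf1 and Igf2 encode the ligands. Igf1r encodes the receptor tyrosine kinase that signals, and Igf2r encodes the receptor that takes Igf2 up for breakdown and also sorts mannose 6-phosphate-tagged enzymes to lysosomes. Most extracellular IGF is held by binding proteins of the Igfbp family, which proteases cut to release the ligand. In the hippocampus, IGFs are known for supporting neuron survival and neurogenesis in the dentate gyrus (DG), and choroid plexus and meninges are known as rich sources of Igf2 and Igfbp2 in the adult brain.

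The 9 genes Igf1, Igf2, Igf1r, Igf2r, Igfbp2, Igfbp3, Igfbp4, Igfbp5 and Igfbp6 were described here as the IGF system and were chosen by gene name from 35199 names on the array. They had 15 of 41012 probes and 42 of 43379 spots. All 9 were among the 21332 genes tested. The same 9 were well above background (the scanner software's own call, on at least 1 probe) in all 8 rats, so no member entered the test through 1 group alone.

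RNA came from the DG of adult female Sprague-Dawley rats of 150 to 200 g. Every rat had been ovariectomized (OVX) and had gone through status epilepticus (SE), a state of continuous seizures, induced with kainic acid. The oil-injected rats formed the COS group (n = 4) and the rats given estradiol (E2) formed the CES group (n = 4). Per the labels, E2 was given as 4 doses of 2 µg at intervals of 24 h, of which 2 came before SE and 2 after, kainic acid was given at 16 mg/kg, and SE was stopped after 5 h with pentobarbital. The published methods give another kainic acid dose, another anticonvulsant and E2 before SE only, and the files did not settle which applied. The same methods name 24 h after SE for tissue collection, but for the arrays 2 h into continuous seizures. Rats without SE were not analysed here, so every value below compares E2 with oil after SE.

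Each array held 2 rats of the same group, 1 in the green dye Cy3 and 1 in the red dye Cy5. A level is the log2 of a gene's background-subtracted signal over the median valid spot of the same channel, so 0 is the median spot of that rat and 1 unit is a doubling. A difference is the CES mean minus the COS mean. Between 30690 and 38553 spots per rat had a signal at least 2 times the local background. With this scaling, the median gene differed by -0.25 (log2) between the groups, and each member's difference is therefore also given relative to that median gene.

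Some features of the rats touch all results. CES rat 2 was closer over genes to the COS rats (Pearson r across genes 0.974 to 0.983) than to the other CES rats (0.955 to 0.964), while the other 3 CES rats had 0.977 to 0.989 among themselves. Values without this rat are given beside Igfbp3, Igfbp4, Igfbp5 and Igf1r. The granule cell markers Calb1, C1ql2 and Neurod1 were well above background in every rat, but Prox1 was in none. Of 5 granule cell markers tested, 3 were lower in CES, 1 was higher and 1 was not called (limma). Of all genes, 28.3% were lower and 5.8% higher. A summed level is the log2 of the added signals of a list's tested genes, so the brightest gene weighs most. The summed level of the granule cell list was 4.02 to 4.88 in COS and 4.23 to 4.65 in CES. Markers of the neighbouring CA fields such as Neurod6 and Wfs1 were also well above background in every rat. Of 7 tested, 5 were higher in CES, 1 was lower and 1 was not called. The summed level of the CA list was 4.80 to 5.39 in COS and 5.64 to 6.70 in CES, without overlap. Its part in the members' values was not tested. In dissected tissue, fewer cells of a type and less RNA per cell cannot be told apart.

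Probe sequences are shown for Igfbp3 and Igf1r, which were called between the groups, and for Igfbp6, whose probe shares with an Igfbp3 probe the longest run of bases between any pair of the members' probes. The sequences run 5′ to 3′ as the array files list them, and the capitals mark that shared run of 12 bases.
Igfbp3, listed position 811: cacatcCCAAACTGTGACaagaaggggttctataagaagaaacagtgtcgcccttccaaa
Igfbp6, listed position 501: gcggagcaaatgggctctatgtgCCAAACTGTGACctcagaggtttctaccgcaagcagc
Igf1r, listed position 3835: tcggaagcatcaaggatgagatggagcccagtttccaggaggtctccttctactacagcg

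On the rat build rn4 used by the files, the Igfbp3 probe at position 811 lay on the minus strand of chromosome 14 within 87961611 to 87962505. That span of 895 bases is longer than the 60-base probe, so the probe is split in the genome. The second Igfbp3 probe, at position 1015, lay at 87960494 to 87960553. The Igfbp6 probe lay on chromosome 7 at 140888422 to 140888481 and the Igf1r probe on chromosome 1 at 122989150 to 122989209. The Igf1 probe at position 301 was split over 5094 bases of chromosome 7, from 24531970 to 24537063. Exon and UTR annotation of rn4 was not used here.

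Of the 9 members, 3 were lower in CES (Igf1, Igf1r and Igfbp3), none was higher and 6 did not pass the test (limma, adjusted p under 0.05). The same 3 had an unadjusted p under 0.05, against 45.2% of all genes. Over all genes tested, 28.3% were called lower and 5.8% higher. The members' median difference was -0.48, against -0.25 for all genes. Values of the groups did not overlap for 1 member, Igfbp3, against 21.4% of all genes in either direction. The plot of all levels by rat shows this separation.

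**Figure D1:**
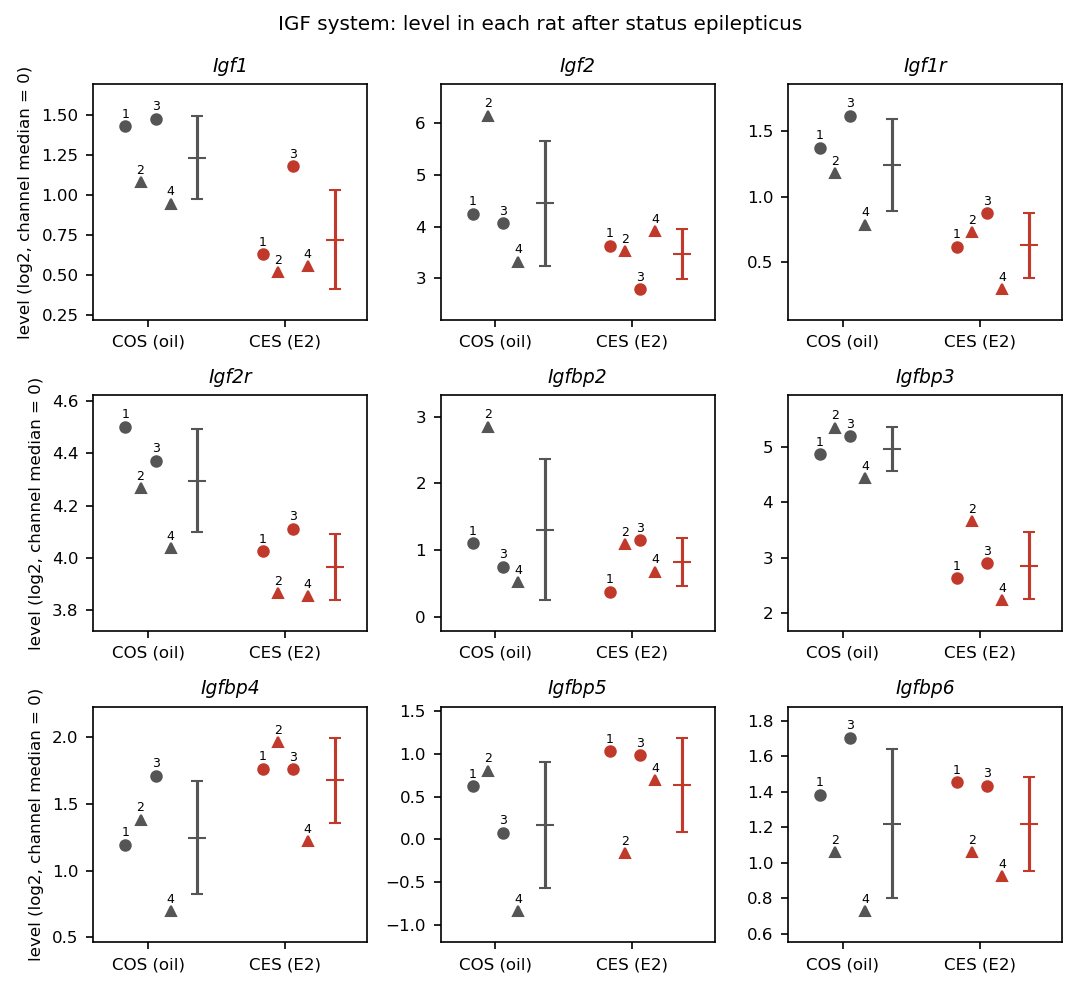
Level (log2, the median valid spot of each channel being 0) of the 9 genes in each rat, grey for COS (oil) and red for CES (E2). Circles are Cy3 rats, triangles Cy5 rats, small digits replicate numbers, and the bars to the right of the points are mean ± SD (n = 4 rats); each panel has its own axis. The Igfbp3 levels of the groups did not overlap, and COS rat 2 was the highest for Igf2 and Igfbp2.

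Igfbp3, the binding protein that carries most IGF in blood, was the member with the largest difference. Its level was 4.87, 5.35, 5.20 and 4.44 in COS rats 1 to 4. It was 2.63, 3.65, 2.90 and 2.23 in CES rats 1 to 4. Every CES rat lay below every COS rat, and CES rat 2 was the closest to the COS group. The mean was 4.96 ± 0.40 in COS and 2.86 ± 0.60 in CES (SD, n = 4 each). Igfbp3 fell by 2.11 on the log2 scale (SE 0.31, 95% interval -2.81 to -1.41, limma adjusted p = 0.0039), which is a level 4.31-fold higher in COS, or 3.61-fold relative to the median gene. The fall was the 304th largest of 21332 genes, within the lowest 1.42%.

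The Igfbp3 difference was seen on all 11 of its spots. The probe at position 811 was printed at 10 spots, whose differences ran from -2.46 to -1.80, and the probe at position 1015 gave -1.92 (limma adjusted p = 0.004 over 25698 probes for either probe). In the Cy3 rats the difference was -2.26 and in the Cy5 rats -1.95. Without CES rat 2 it was -2.42. With any other single rat left out it stayed between -2.33 and -1.84, with a highest adjusted p of 0.047 (limma) without COS rat 3. With loess or quantile scaling, in which the median gene moved to 0.06, the Igfbp3 difference was -1.78 (adjusted p at most 0.019). With the Cy5 rats alone the Igfbp3 difference did not pass (limma adjusted p = 0.343), where 2 of 21332 genes passed. The methods' t-test with adjustment over all genes gave an adjusted p of 0.077, and 0 of 21332 genes passed. The published methods describe a correction only for redundant spots of a gene and add a fold-change cut-off. That rule was not applied here.

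**Figure D2:**
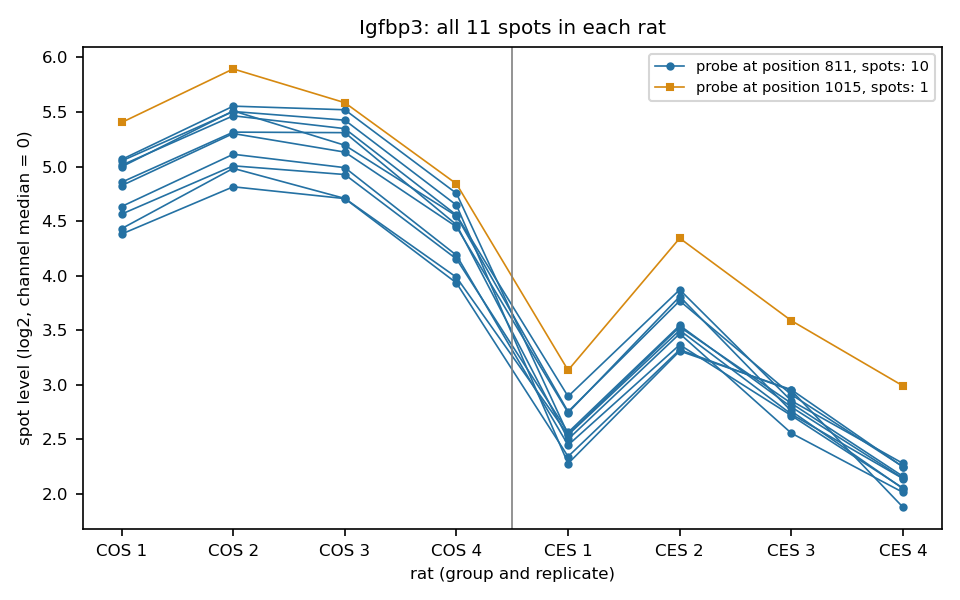
Level (log2, channel median = 0) of each of the 11 Igfbp3 spots in each rat, COS rats left of the grey line and CES rats right of it. Blue lines are the 10 spots of the probe at position 811 and the orange line is the spot of the probe at position 1015; lines join the values of 1 spot and stand for no order of rats. All spots were lower in CES, with CES rat 2 the highest of its group.

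Markers of vessel wall cells are given beside Igfbp3. Of 6 pericyte and smooth muscle markers tested, 4 were lower in CES and 1 higher, where 28.3% of all genes were lower and 5.8% higher, and the summed level of the list was 5.60 to 6.34 in COS and 3.56 to 5.10 in CES, with CES rat 2 highest in its group. Tagln, an actin-binding protein of smooth muscle, differed by -2.59 (limma adjusted p = 0.005) and Pdgfrb, the pericyte receptor for platelet-derived growth factor, by -1.25 (adjusted p = 0.004), whereas Rgs5, another pericyte marker, was higher by 0.79 (adjusted p = 0.008). The 6 endothelial markers tested split into 3 lower, 1 higher and 2 not called, with overlapping summed levels of 4.84 to 5.32 in COS and 4.30 to 4.91 in CES. Each marker tested from either list was well above background in rats of both groups. Their part in the Igfbp3 result was not tested.

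Igfbp1, encoded next to Igfbp3, went the other way. Its probe on chromosome 14 (rn4, 87954736 to 87954795) lay 5698 bases from the nearer Igfbp3 probe. The Igfbp1 level was 0.88, 0.71, 1.08 and 0.42 in COS rats 1 to 4 and 1.34, 1.04, 1.73 and 1.40 in CES rats 1 to 4. The groups overlapped only through COS rat 3 and CES rat 2. Igfbp1 rose by 0.60 (SE 0.18, limma adjusted p = 0.026), or 1.52-fold. Under loess scaling it was higher by 0.99 (adjusted p = 0.016). The call was lost under normexp background correction (0.56, adjusted p = 0.464), with processed signals (0.48, 0.097) and without COS rat 1 (0.089), COS rat 3 (0.076), COS rat 4 (0.083) or CES rat 1 (0.0501).

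The other binding proteins did not pass the test. Igfbp4, an inhibitor of IGF action and a substrate of the protease Pappa, was at 1.19, 1.38, 1.71 and 0.70 in COS and 1.76, 1.96, 1.76 and 1.22 in CES. Most CES rats lay above the COS rats, but CES rat 4 lay within them. The difference was 0.43 (SE 0.23, 95% interval -0.09 to 0.95, adjusted p = 0.176, limma), or 0.69 relative to the median gene. Igfbp4 was called higher under loess scaling (0.81, adjusted p = 0.033), quantile scaling (0.80, 0.029), scaling over spots valid in all rats (0.83, 0.029) and in the deposited log2 table (0.82, 0.026), and also when CES rat 4 was left out (0.58, 0.036). Without COS rat 4 the difference was 0.25 and without CES rat 2 it was 0.26. These values rest on the probe at position 2061, since the probe at position 656 was well above background in only 2 of 8 rats.

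Igfbp5, which binds extracellular matrix as well as IGFs, was at 0.62, 0.81, 0.08 and -0.84 in COS and 1.03, -0.17, 0.98 and 0.69 in CES. The groups overlapped widely, with COS rat 4 the lowest of all and CES rat 2 the lowest of its group. The difference was 0.47 (SE 0.34, 95% interval -0.30 to 1.24, limma adjusted p = 0.316), or 0.72 relative to the median gene. Without COS rat 2 it was 0.84 (adjusted p = 0.045), without COS rat 4 it was 0.22 and without CES rat 2 it was 0.68 (adjusted p = 0.133). One of its 2 probes was well above background in no rat, and the value comes from the other, at position 5094.

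Igfbp6, a binding protein that prefers Igf2, had almost equal group means. Its level was 1.38, 1.06, 1.70 and 0.73 in COS and 1.46, 1.06, 1.43 and 0.93 in CES. The 95% interval of the difference was -0.37 to 0.37, so with 4 rats per group differences in either direction within that range were not excluded. Its direction depended on the scaling, from -0.0006 here to 0.38 under loess (adjusted p = 0.052, limma). Relative to the median gene, the difference with channel-median scaling was 0.25. The Igfbp6 probe shares 12 bases with an Igfbp3 probe, and the differences of these genes were not similar. Any part of the shared bases in either value was not tested.

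Igfbp2 and Igf2 shared 1 high rat. Igfbp2, the main IGF binding protein of cerebrospinal fluid, was at 1.11, 2.85, 0.75 and 0.52 in COS and 0.38, 1.09, 1.15 and 0.68 in CES. Igf2, the ligand, was at 4.25, 6.15, 4.07 and 3.32 in COS and 3.63, 3.53, 2.79 and 3.92 in CES. COS rat 2 was the highest of all 8 rats for both, and the remaining values of the groups overlapped.

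The difference was -0.98 for Igf2 (SE 0.49, 95% interval -2.08 to 0.12, adjusted p = 0.149) and -0.48 for Igfbp2 (SE 0.43, 95% interval -1.45 to 0.49, adjusted p = 0.419), both by limma. Relative to the median gene, Igf2 differed by -0.73 and Igfbp2 by -0.23. Without COS rat 2 the differences of -0.98 and -0.48 became -0.41 and 0.05, so that the sign of Igfbp2 turned. Without COS rat 4, Igf2 was called lower (-1.51, adjusted p = 0.029) and Igfbp2 was at -0.84. In the Cy3 rats alone, which do not include COS rat 2, Igf2 was called lower by a difference of -0.95 (limma adjusted p = 0.043).

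COS rat 2 was also the highest for choroid plexus markers. Ttr, the thyroid hormone carrier secreted by choroid plexus, was at 4.18, 9.22, 5.48 and 3.57 in COS and 5.63, 7.55, 3.80 and 7.55 in CES. Sostdc1 and Folr1 reached 4.17 and 3.19 in COS rat 2. Yet CES rats 2 and 4, with Ttr at 7.55 each, had Igf2 at 3.53 and 3.92, within the range of the COS rats other than COS rat 2. Of 10 choroid plexus markers, 7 were tested and none was called by limma, and their summed level was 3.80 to 9.31 in COS and 4.12 to 7.66 in CES. That sum mostly follows Ttr. Clic6 was well above background in 1 COS rat and 2 CES rats. With both rats of the array of COS rat 2 left out, Igf2 differed by -0.23 and Igfbp2 by 0.19. Fibroblasts of the meninges and vessel sheaths also make Igf2. Their markers split into 3 lower, 1 higher and 5 not called of 9 tested, where 28.3% of all genes were lower and 5.8% higher. The summed level of these markers was 3.81 to 5.00 in COS and 4.10 to 4.50 in CES. The part of either cell type in the Igf2 and Igfbp2 values was not tested.

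**Figure D3:**
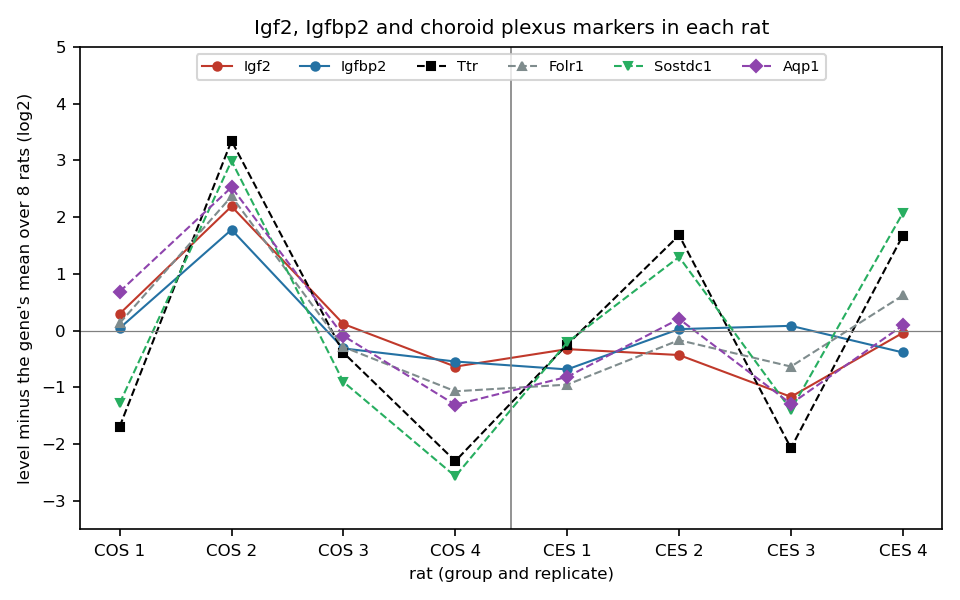
Level of Igf2, Igfbp2 and 4 choroid plexus markers in each rat minus that gene's own mean over the 8 rats (log2); solid lines are members, broken lines markers, and the grey vertical line separates COS from CES. All 6 genes peaked in COS rat 2, while the Ttr and Sostdc1 peaks in CES rats 2 and 4 were not matched by peaks of similar size in Igf2 or Igfbp2.

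Igf1, the ligand best known for brain growth and for its release after injury, was lower in CES. Its level was 1.43, 1.08, 1.48 and 0.94 in COS and 0.63, 0.52, 1.18 and 0.56 in CES. The groups overlapped through CES rat 3 alone. The mean was 1.23 ± 0.26 in COS and 0.72 ± 0.31 in CES (SD, n = 4 each), a difference of -0.51 (SE 0.17, 95% interval -0.89 to -0.14, limma adjusted p = 0.0404). That is 1.43-fold, and 1.20-fold (log2 difference -0.26) relative to the median gene. Of all genes, 32.3% had a lower difference.

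The Igf1 call was not stable. It was lost under loess (-0.14, adjusted p = 0.448), quantile (-0.15, 0.428), scaling over common spots (-0.11, 0.566), normexp background correction (-0.33, 0.778), with processed signals (-0.45, 0.118) and in the deposited table (-0.17, 0.323), although the sign stayed negative. It was also lost without COS rat 1 (limma adjusted p = 0.109), COS rat 2 (0.093), COS rat 3 (0.143), COS rat 4 (0.077) or CES rat 1 (0.135). Leaving out CES rat 3 gave -0.63 (adjusted p = 0.011).

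Of the 4 Igf1 probes, the pair at positions 301 and 502 was well above background in every rat, and both differences were negative. The bright probe at position 502 (chromosome 7, rn4, 24604715 to 24604774) was at 3.18, 2.86, 3.18 and 2.74 in COS and 2.25, 2.21, 2.76 and 2.25 in CES. Its groups overlapped through COS rat 4 and CES rat 3 only, and the difference was -0.62 (SE 0.17, limma adjusted p = 0.019 over all probes). The split probe at position 301 gave -0.27 (SE 0.16, adjusted p = 0.223). The probes at positions 169 and 229 lay at 24533750 to 24533809 and 24533810 to 24537048, within the span of the split probe. They were well above background in 8 of 80 readings and in 2 of 8 readings, and no fold is given for them. The gene value thus mostly follows the probe at position 502.

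Igf1r, the signalling receptor, was lower in CES as well. Its level was 1.38, 1.18, 1.62 and 0.79 in COS and 0.62, 0.73, 0.88 and 0.29 in CES. COS rat 4 lay within the CES values and the other COS rats above all of them. The mean was 1.24 ± 0.35 in COS and 0.63 ± 0.25 in CES (SD, n = 4 each), a difference of -0.61 (SE 0.18, 95% interval -1.02 to -0.20, limma adjusted p = 0.0295), which is 1.53-fold, or 1.28-fold relative to the median gene. All 10 spots of its probe were lower in CES, by -0.77 to -0.38. The call was lost under loess (-0.22, adjusted p = 0.249), quantile (-0.22, 0.218), scaling over common spots (-0.21, 0.260), normexp background correction (-0.39, 0.706) and in the deposited table (-0.22, 0.221). It was also lost without COS rat 1 (0.078), COS rat 2 (0.078), COS rat 3 (0.151) or CES rat 1 (0.116). Without CES rat 2 the difference was -0.73 (adjusted p = 0.0099).

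Igf2r, the clearance receptor, varied least. Its level was 4.50, 4.27, 4.37 and 4.04 in COS and 4.03, 3.86, 4.11 and 3.85 in CES. Only COS rat 4 and CES rat 3 made the groups overlap. The difference was -0.33 (SE 0.15, 95% interval -0.66 to 0.00, limma adjusted p = 0.112) and -0.08 relative to the median gene. Its sign turned under scaling over common spots (0.07) and in the deposited table (0.02).

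Markers of microglia, a source of Igf1 after injury, are given beside these values. Of 9 microglia and macrophage markers tested, 4 were lower in CES, 1 was higher and 4 were not called. Of all genes, 28.3% were lower and 5.8% higher. The summed level of these markers was 6.12 to 6.77 in COS and 5.31 to 6.05 in CES. Cd68, a lysosomal protein of activated cells, differed by -2.19 (limma adjusted p = 0.005) and P2ry12, a receptor of resting microglia, by 0.93 (adjusted p = 0.008). Tmem119 was well above background in 1 of 8 rats. Their part in the Igf1 result was not tested.

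**Figure D4:**
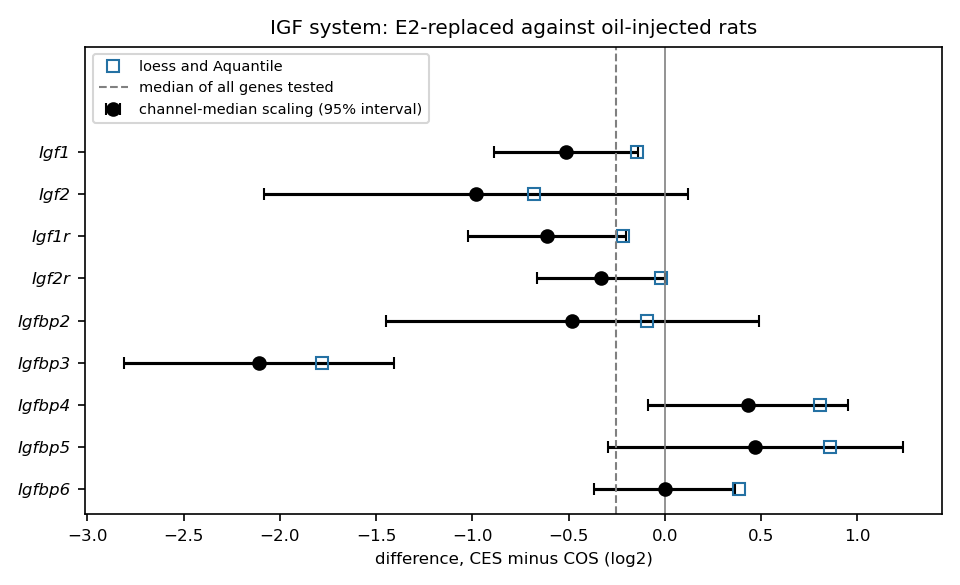
Difference between CES and COS (log2, CES minus COS) of each member with channel-median scaling (black points, bars are 95% intervals, n = 4 rats per group) and after loess and Aquantile scaling (blue squares). The solid line is 0 and the broken line the median of all genes tested (-0.25). Igfbp3 stood lowest under both scalings, while the squares of Igf1, Igf1r and Igf2r lay closer to 0 and that of Igfbp4 farther from it.

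Among the members themselves, the distances between patterns over the 8 rats were smallest among Igf1, Igf1r and Igf2r. The root mean square distance between levels, each centred on its own mean over rats, was 0.18 (log2) for Igf1 and Igf2r, 0.18 for Igf1 and Igf1r, and 0.22 for Igf1r and Igf2r. The most distant pair was Igfbp3 and Igfbp5, at 1.48. By the same measure, the non-member genes closest to Igfbp3 were Phlda1 (0.12), ENSRNOT00000016839 (0.14) and Itpkc (0.16). Phlda1 encodes a pleckstrin-homology-like protein first linked to cell death, and Itpkc an inositol trisphosphate kinase. Closest to Igf1 were Ppp6c (0.04), A_44_P461666 (0.05) and Psma2 (0.06), and close to Igf1r were ENSRNOT00000052276 (0.04) and Fbxo18 (0.05). Closest to Igf2 were ENSRNOT00000033978 (0.29), RGD1561795 (0.35) and Krt18 (0.39), at larger distances than for Igf1, Igf1r and Igfbp3. The distance is not scaled for how much a gene varies, so genes that vary little tend to lie closer. The root mean square deviation of a gene from its own mean was 0.36 for Igf1, 0.40 for Igf1r, 0.93 for Igf2 and 1.14 for Igfbp3.

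RefSeq start sites on the later build GRCr8 gave 10 promoter windows of 300 bases for the 9 members, Igf2 having 2. On either strand, none held the palindromic estrogen response element (GGTCA and TGACC with 3 free bases between them), the AP-1 site TGANTCA or the cyclic AMP response element TGACGTCA. Over all 33469 windows, these letters were found in 0.0269%, 7.33% and 1.83%. The absence of a match says only that these letters are not in these windows.

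The other genes of IGF signalling were described from a list of 54, of which 51 were on the array and 42 were tested. In CES, 18 were lower, 2 were higher and 22 were not called (limma), and the median difference was -0.33, against 28.3% lower, 5.8% higher and a median of -0.25 over all genes. The values of the groups did not overlap for 11 genes, 10 with CES below and 1 with CES above, where 19.8% and 1.61% of all genes did so. Under loess scaling 4 of the list were lower and 4 higher, against 8.87% and 14.3% of all genes. Of the 20 genes called, 6 were also called in the same direction under loess, quantile, common-spot scaling and in the deposited table: Shc1, Sh2b1, Eif4ebp1, Inpp5d, Grb14 and Igfbp1. With normexp, where 2.7% of all genes were called, Sh2b1 (adjusted p = 0.330), Inpp5d (0.161), Grb14 (0.259) and Igfbp1 were not called by limma. No called gene changed sign under a scaling that gave it a value (Tsc1 had none in the deposited table).

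Among receptors and adaptors, 6 were tested, 4 were lower and 1 was higher, where 28.3% of all genes were lower and 5.8% higher. Shc1, an adaptor of receptor tyrosine kinases, was at 2.85, 2.77, 2.96 and 2.45 in COS and 0.65, 1.92, 0.96 and 0.52 in CES. All CES rats lay below all COS rats, with CES rat 2 nearest to them. Shc1 fell by 1.75 on the log2 scale (SE 0.29, limma adjusted p = 0.005). Sh2b1, an adaptor that strengthens insulin and IGF receptor signalling, fell by 0.92 (SE 0.17, adjusted p = 0.005), from 2.36 to 2.94 in COS to 1.63 to 1.93 in CES. Irs2, a docking substrate of both receptors, fell by 0.77 (adjusted p = 0.016) without overlap, and Grb10, which restrains both receptors, fell by 0.63 (adjusted p = 0.028) with overlap.

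Grb14, an inhibitor of the insulin receptor kinase, was the adaptor that rose. Its level was 1.03, 0.79, 1.29 and 0.92 in COS and 1.58, 1.51, 2.24 and 1.95 in CES, so the lowest CES value was above the highest COS value. The rise was 0.81 (SE 0.20, limma adjusted p = 0.013), or 1.76-fold. The insulin receptor Insr, the docking protein Irs1 and the ternary-complex subunit Igfals were not tested, since no spot of theirs was valid in all rats. Insr was well above background in 1 COS rat and 1 CES rat, Irs1 in 1 CES rat and Igfals in none. Igfbp7 was not named on the array.

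All 4 genes tested from the list of proteases and their inhibitors were lower in CES, where 28.3% of all genes were lower. Pappa, the metalloprotease that cuts Igfbp4, was at 0.84, 0.84, 2.10 and 0.70 in COS and -0.98, 0.48, -0.81 and -1.74 in CES. COS rat 3 stood far above its group, CES rat 2 lay just under the COS rats, and the groups did not overlap. Pappa fell by 1.88 (SE 0.46, limma adjusted p = 0.013). Stc1, a stanniocalcin that inhibits Pappa, fell by 0.73 (adjusted p = 0.023). Htra1, a serine protease that cuts binding proteins and matrix, fell by 0.70 (adjusted p = 0.027), and Ide, the insulin-degrading enzyme, by 0.62 (adjusted p = 0.048). Relative to the median gene, Pappa differed by -1.63, Stc1 by -0.47, Htra1 by -0.44 and Ide by -0.37. None of the 4 was called under loess, where Pappa was at -1.50 (adjusted p = 0.076).

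Of 21 genes of the PI3K, Akt and mTOR branch, 7 were lower and none was higher, where 28.3% of all genes were lower. The median difference of the branch was -0.25, as over all genes. Eif4ebp1, the translation repressor that mTOR complex 1 inactivates, was at 5.25, 5.05, 5.24 and 4.91 in COS and 2.66, 4.29, 3.44 and 2.76 in CES, without overlap and with CES rat 2 the highest of its group. It fell by 1.82 (SE 0.33, limma adjusted p = 0.005). Rps6kb1, the S6 kinase downstream of the same complex, fell by 0.93 (adjusted p = 0.009) and Rheb, the small GTPase that activates it, by 0.77 (adjusted p = 0.026). Pik3ca and Pik3cb, catalytic subunits of PI3K, fell by 0.63 (adjusted p = 0.023) and 0.56 (adjusted p = 0.031). Tsc1, a brake on Rheb, was called at -1.14 (adjusted p = 0.027) but was well above background in only 2 COS rats and 1 CES rat. The 14 genes not called included Akt1 at -0.25 (adjusted p = 0.269) and Mtor at -0.13 (adjusted p = 0.599), measured on 10 spots each.

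Of 4 genes listed as phosphatases, 3 were lower, where 28.3% of all genes were lower. Inpp5d, the inositol phosphatase of blood-derived cells and microglia, was at 1.34, 0.87, 1.26 and 0.56 in COS and -0.68, -0.05, -0.04 and -0.72 in CES. The groups did not overlap, and Inpp5d fell by 1.38 (SE 0.23, limma adjusted p = 0.004). Its relative Inppl1 was called at -0.82 (adjusted p = 0.005) but was well above background in 3 COS rats and 2 CES rats. Ptpn1, which dephosphorylates the insulin and IGF receptors, fell by 0.55 (adjusted p = 0.048). None of the 4 genes of the hormone axis (Ghr, Gh1, Ins1 and Ins2) was called by limma, and Gh1 and Ins2 were each well above background in only 1 of 8 rats. Igf2bp2, an RNA-binding protein named for Igf2 messages, did not pass either (-0.67, adjusted p = 0.098).

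Leaving out 1 rat changed the number of list genes called. It was 9 without COS rat 1, 11 without COS rat 2, 3 without COS rat 3, 13 without COS rat 4 and 7 without CES rat 1, but 20, 19 and 18 without CES rats 2, 3 and 4. Over all genes the share called moved as well. It was 19.4% without COS rat 1, 23.7% without COS rat 2, 5.49% without COS rat 3, 26.0% without COS rat 4 and 14.0% without CES rat 1, and 41.4%, 38.3% and 37.1% without CES rats 2, 3 and 4, against 34.1% with all rats.

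**Figure D5:**
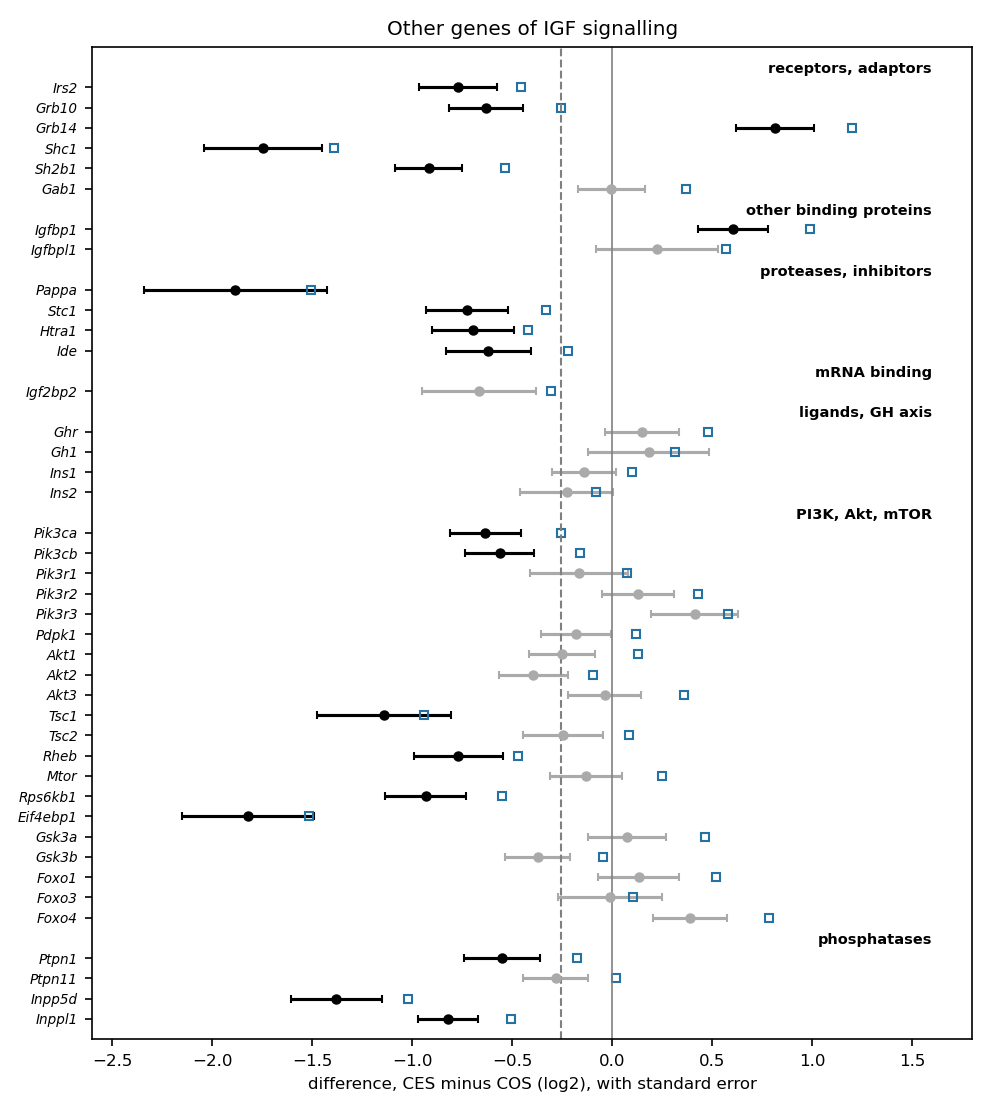
Difference between CES and COS (log2, CES minus COS) of tested genes of IGF signalling outside the members, grouped by role. Points are channel-median scaling with standard error (black if the limma adjusted p was under 0.05, grey otherwise), blue squares are loess and Aquantile scaling, the solid line is 0 and the broken line the median of all genes tested. Shc1, Pappa, Eif4ebp1 and Inpp5d lay farthest to the left, and Grb14 and Igfbp1 were the only genes called to the right.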

How the data were processed

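RNA from the DG of 8 rats (4 COS, 4 CES) was hybridized to 4 two-colour Agilent rat arrays of 1 slide. Per the labels and file headers, the authors deposited spot intensity values from Agilent Feature Extraction 10.7.3.1 (probe positions on rn4), both channels of an array appearing in the files of both its rats, and a table of log2 values. Only the channel of the rat's own dye was used. That deposited log2 table equalled the median signal minus background, centred on each channel's median, and served as an alternative. Following the published rule, a spot was valid at a signal of at least 2 times its local background. The mean signal minus the background median of the 27642 spots valid in all rats was divided by the median of the channel's valid spots, averaged over the spots of a gene name and put on the log2 scale. The study's iterative renormalization needs groups not analysed here. No reading was saturated, and spots with outlier marks were kept.

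Groups were compared with limma 3.58.1 in R 4.3.3 (dye as a term, array as a random block with a consensus correlation of -0.006, two-sided, Benjamini-Hochberg over 21332 genes, threshold 0.05), which was tested on simulated data. Since each array held 1 group, p-values measure the spread between rats on these arrays, and the number of arrays limits the precision. Rats with the same replicate number deviated together (r over genes 0.209 to 0.335), but so did other rats of the same dye (0.208 to 0.437), and after the dye means were removed the same-number values were -0.065 and -0.039. The numbers therefore marked the dye. The alternatives were background correction, scaling, filters, dye, block, choice of probe and leaving out rats; single-probe fits, equal weights for probes and leaving out COS rats 1 and 2 were added after seeing the data. Named were all members, the called genes of the IGF signalling list, Insr, Irs1, Irs2, Pappa, Igfbp7 and Igfals whatever their result, and the 3 genes of nearest pattern for called members, Igf1 and Igf2. Other genes, such as Akt1, Mtor and the markers, were named after their values were seen. The members and lists were chosen with earlier results of these data known. Symbols are those of the files. Some items that the naming rule selects are not reported here.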

Additional observations from a re-analysis of the deposited data

Results flagged for a closer look

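Of 58 groups of 4 rats checked among members and called genes of the list, 3 had 1 rat far from the rest by Dixon's ratio (the gap to the nearest rat over the group's range, past the 95% critical value), and chance marks about 1 in 20 groups. For Igf1 in CES, rat 3 was at 1.18 and the others at 0.52 to 0.63. For Pappa in COS, rat 3 was at 2.10 and the others at 0.70 to 0.84. For Stc1 in COS, rat 4 was at 0.11 and the others at 0.52 to 0.60.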

How the results depend on the processing

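With all rats and channel-median scaling, 3 members and 20 list genes were called and 1 member did not overlap. Normexp background correction gave 1, 2 and 2, where 2.7% of all genes were called and 14.4% did not overlap. Loess gave 8 list genes and 3 non-overlapping members, quantile scaling 7 and 3, scaling over spots valid in all rats 10 and 3, and the deposited log2 values 10 and 4, where 29.7% to 35.0% of all genes did not overlap, against 21.4% with channel-median scaling. The same scalings and the deposited values called 23.1% to 24.8% of all genes, against 34.1% with channel-median scaling. Without the valid-spot filter 1 member and 7 list genes were called, where 9.09% of all genes were called. With Cy3 rats alone (2 per group) 10 list genes were called and 7 members did not overlap, where 23.8% of all genes were called and 63.3% did not overlap. With Cy5 rats alone (2 per group) 0 members and 0 list genes were called by limma, where 2 of 21332 genes were called. In the same rats 4 members did not overlap, as did 51.7% of all genes. The methods' t-test called 0 of 21332 genes after adjustment over all genes, a step the published methods do not describe. Without COS rats 1 and 2, 6 list genes were called, where 10.4% of all genes were called. Leaving out 1 rat gave 1 to 4 members, 3 to 20 list genes and 1 to 4 non-overlapping members. Members fell to 1 without COS rat 1, COS rat 3 or CES rat 1.

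Signs turned for Igfbp6 under normexp (0.087), processed signals (0.0626), loess (0.38), quantile (0.39), common-spot scaling (0.40), the deposited table (0.36), Cy5 rats alone (0.10), without COS rats 1 and 2 (0.0027) and with single rats left out (-0.10 to 0.10). They also turned for Igf2r under common-spot scaling (0.069) and in the deposited table (0.0165), for Igfbp2 without COS rats 1 and 2 (0.19) and with single rats left out (-0.84 to 0.0512), and for Igf1 on the probe at position 169 alone (0.49), which was well above background in 8 of 80 readings, so its sign is not read. The loss of a rat or dye leaves fewer samples. Common-spot scaling moved every gene by the same 0.40. Relative to the median gene, Igf2r thus stayed at -0.08 and Igfbp6 at 0.25. Over the alternatives other than single-probe fits, this relative difference ran from -0.14 to -0.009 for Igf2r and from 0.21 to 0.35 for Igfbp6. For the remaining changes the cause was not tested. Over all genes, loess called 3042 higher and 1892 lower, against 1238 and 6038 here, and moved the median gene to 0.06. With the replicate number as a block, 3 members and 18 list genes were called and 1 member did not overlap, so the pairing changed no member's call. Igfbp3 kept its sign under all 30 alternatives (-2.42 to -1.71) and its call in 28. For dim probes the signal over background limits what can be said.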
